A study of Mus musculus with 6 samples.

Results

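Transcript levels of 10 genes known as markers of acute tubular injury were described in mTECs, an immortalised line of mouse renal tubular epithelium, after treatment with LPS, a bacterial lipopolysaccharide. The markers were Lcn2, Havcr1, Spp1, Clu, Vcam1, Icam1, Krt20, Sox9, Timp1 and Timp2. They were taken by their mouse symbol in the GENCODE M21 annotation from a table of 22442 genes, a rule that used no measured value. The choice of the markers was nevertheless made with earlier results of these data known. All 10 were present in the table and all were measured above 0 in every library.

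When tubular epithelium is injured by sepsis or ischaemia, the surviving cells lose part of their transport programme and raise the expression of a set of injury and repair genes. Some of these genes encode secreted proteins that reach the urine, such as lipocalin-2 (Lcn2, also called NGAL), osteopontin (Spp1), clusterin (Clu) and the metalloproteinase inhibitors Timp1 and Timp2. Others encode surface receptors, such as kidney injury molecule-1 (Kim1, the product of Havcr1) and the adhesion molecules Vcam1 and Icam1, or proteins inside the cell, such as keratin 20 (Krt20) and the transcription factor Sox9. Stat3, the factor targeted in these cells, is a transcription factor activated by cytokines of the interleukin-6 family and by growth factors.

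The study compared mTECs in which Stat3 was silenced with control cells, to find transcripts that depend on Stat3 under LPS. There were 3 libraries labelled LPS, from cells transfected with a negative control, and 3 labelled LPSKD, from cells transfected with an RNA directed against Stat3. The cells of both groups then received LPS at 20 µg/ml for 24 h. The sample labels speak of an siRNA and of magnetically sorted cells, whereas the methods describe the line as immortalised and list an shRNA against mouse Stat3. No untreated cells were analysed here, so the values give the level under LPS in both groups and not the response to LPS. Whether the 3 libraries of a group came from separate cultures is not given in the sources used here, and p-values measure only the spread between these libraries. Since these were bulk samples, fewer cells of a type and less RNA per cell cannot be told apart.

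The values are FPKM, in which the fragments of a gene are divided by gene length and by library size. Library totals recovered from the values lay between 24084827 and 25422171 fragments. Stat3 had 34.6, 31.4 and 35.2 FPKM in the LPS libraries and 30.8, 35.2 and 34.3 FPKM in the LPSKD libraries. The groups overlapped for Stat3, and its log2 fold change was −0.01 (95% confidence interval −0.17 to 0.14, adjusted p = 0.944 from limma; exact permutation test, p = 0.7). The targeted transcript was therefore not lower in the LPSKD libraries, and every direction given here rests on labels that this transcript does not bear out.

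The identity of the cells was checked against 20 markers of tubule epithelium, of which 16 were above 0 and 12 reached a mean of 0.5 FPKM. Cadherin-16, a kidney-specific cadherin (Cdh16), had 183 ± 8.20 FPKM in the LPS libraries, and Pax8, a transcription factor of the renal lineage, had 74.5 ± 4.29 FPKM (SD, n = 3 per group). Slc34a1 and Slc22a6, transporters of the proximal tubule, Umod of the thick ascending limb and Aqp2 of the collecting duct were at 0 in all 6 libraries. Markers of renal epithelium were thus present, whereas these defining transcripts of mature tubule segments were listed at 0. Among other markers of mature proximal tubule, the water channel Aqp1 and the uptake receptor Cubn had means of 4.33 and 0.951 FPKM in the LPS libraries. The uptake receptor Lrp2 and the transporter Slc5a2 were close to 0 there, with means of 0.00574 and 0.0134 FPKM.

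The study measured some markers by real-time PCR, and the primers it lists for Kim1 and Lcn2 are given, to show which transcripts they match, in lower case. The listing heads the reverse primers as 3′ to 5′, but read that way they matched 0 transcripts, and all are printed as listed and read 5′ to 3′.
Kim1 forward: cagggaagccgcagaaaa
Kim1 reverse: gagacacggaaggcaaccac
Lcn2 forward: ggacctcatggtggttactttc
Lcn2 reverse: tcccaggggccgtaaactt

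In a search of 141767 annotated mouse transcripts, the Kim1 pair matched 3 of the 4 Havcr1 transcripts and no other gene. The forward primer lies in coding sequence of exon 6, at chr11:46773647-46773664 on the plus strand of GRCm38, and the reverse primer matches the opposite strand in coding exon 8, at chr11:46778512-46778531. Together they span a product of 157 bases. The pair listed under Lcn2 matched none of the 6 annotated Lcn2 transcripts exactly, and its closest places there had 9 mismatches for the forward and 8 for the reverse primer. Both primers of that pair matched 2 transcripts of Nlrp1a, an inflammasome sensor, in coding sequence at chr11:71122680-71122701 and chr11:71122598-71122616, on the minus strand, with a product of 104 bases. In these mTEC libraries Nlrp1a itself had 0, 1 and 0 fragments in LPS and 2, 1 and 2 in LPSKD, against 15122 to 21574 fragments for Lcn2. The figure legends place the study's real-time PCR of Lcn2 in mice with kidney injury, whose transcripts these counts do not describe. Of the 17 mouse primer pairs listed, 15 matched the gene they were listed under.

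Promoter windows from RefSeq (GRCm38.p6), reaching from 250 bases before to 50 bases after an annotated start, were found for 7 of the 10 markers, in 10 windows. They were searched on both strands for a STAT motif (TTCNNNGAA), an AP-1 motif (TGANTCA) and the full NF-kB consensus of 10 letters, with overlapping matches allowed. The STAT motif was found in the Icam1 window only, as TTCCCGGAA at chr9:21015898-21015906, starting 42 bases before the start (offset −42). Of all 32851 promoter windows, 8.30% hold the STAT motif. The AP-1 motif, present in 7.81% of all windows, was found in 1 of the Havcr1 windows, as TGAATCA at chr11:46751178-46751184. It lies after the annotated start of that window, beginning 10 bases past it (offset 10). The NF-kB consensus, present in 8.46% of all windows, had no match in the windows of the markers, but shorter or looser forms of it were not searched. The 250 bases before the start are shown for Icam1, with its STAT motif in capitals, and for Lcn2 and Spp1, the abundant markers whose levels differed between the groups and in which none of the 3 motifs was found. They lie at chr9:21015690-21015939 on the plus strand, chr2:32387740-32387989 on the minus strand and chr5:104434861-104435110 on the plus strand.
Icam1: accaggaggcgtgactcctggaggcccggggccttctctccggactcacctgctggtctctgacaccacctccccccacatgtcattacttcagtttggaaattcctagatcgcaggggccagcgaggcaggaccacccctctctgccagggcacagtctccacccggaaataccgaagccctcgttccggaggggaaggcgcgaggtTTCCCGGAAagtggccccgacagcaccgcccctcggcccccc
Lcn2: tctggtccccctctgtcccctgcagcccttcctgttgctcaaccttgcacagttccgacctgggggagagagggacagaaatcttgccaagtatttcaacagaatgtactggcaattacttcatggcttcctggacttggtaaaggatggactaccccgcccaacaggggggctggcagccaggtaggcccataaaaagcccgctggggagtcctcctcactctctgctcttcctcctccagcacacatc
Spp1: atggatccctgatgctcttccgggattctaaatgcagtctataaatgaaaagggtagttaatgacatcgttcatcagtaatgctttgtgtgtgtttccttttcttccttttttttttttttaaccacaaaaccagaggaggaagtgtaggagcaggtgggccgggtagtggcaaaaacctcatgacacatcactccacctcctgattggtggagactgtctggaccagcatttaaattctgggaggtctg

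Between the labelled groups, 4 of the 10 markers passed the test, and they did not move in 1 direction. Lcn2 was higher in the LPSKD libraries, by 38.9%, whereas Spp1 was lower by 21.1% (−21.1%), Krt20 by 32.8% (−32.8%) and Timp1 by 14.6% (−14.6%). Clu, Sox9, Vcam1, Icam1, Havcr1 and Timp2 did not pass. Differences were tested with limma on log2(FPKM + 0.1) over the 11723 genes with a mean of at least 0.5 FPKM, with Benjamini-Hochberg adjustment over all of them at 0.05. All 10 markers passed this filter. Across all genes tested, 379 (3.23%) passed, 184 of them higher (1.57%) and 195 lower (1.66%) in the LPSKD libraries. Among the 8041 genes with a mean of at least 10 FPKM, 3.92% passed. The groups did not overlap in 7 of the 10 markers, against 23.8% of all genes tested. The median log2 fold change of the markers was −0.09 and the median of its absolute value 0.23, against −0.01 and 0.09 over all genes tested.

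**Figure D1:**
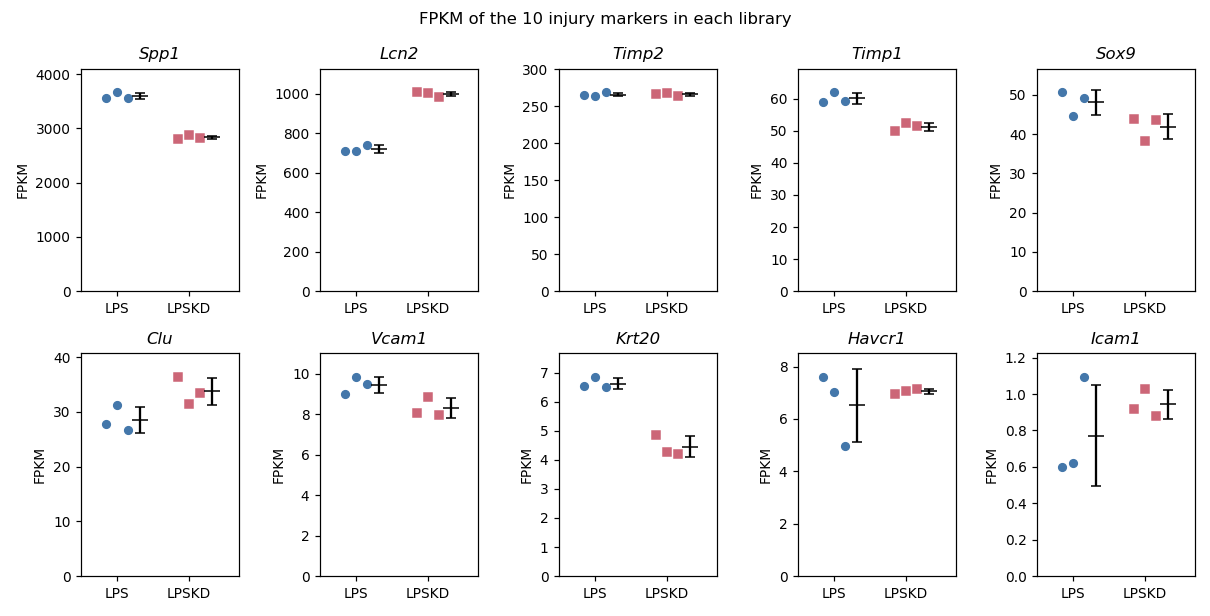
FPKM of each marker (vertical axes, linear and starting at 0, with a scale of their own) in the 3 LPS libraries (blue circles) and the 3 LPSKD libraries (red squares), ordered by mean level, with the mean and SD of each group in black. Lcn2 sits at 708 to 741 in LPS and 985 to 1007 in LPSKD, Spp1 and Krt20 sit lower in LPSKD, and Timp2 is level in both.

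The plot of the values by library orders the markers by level, since FPKM is scaled to length. That length was the coding length, and whether fragments outside coding sequence were counted was not tested, which limits comparisons between genes. Spp1 was the most abundant, followed by Lcn2, Timp2, Timp1, Sox9, Clu and Vcam1, and Icam1 was the lowest. In the LPS libraries the levels of Krt20 (6.49 to 6.84 FPKM) lay within those of Havcr1 (4.96 to 7.59 FPKM), so that the order of this pair was not resolved. In the LPSKD libraries Krt20 (4.20 to 4.86 FPKM) lay below Havcr1 (6.95 to 7.13 FPKM). Neighbours at the other places of the order did not overlap within a group.

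Among the secreted markers, lipocalin-2 binds bacterial siderophores and withholds iron from bacteria, and its gene is induced strongly in the injured distal tubule. Lcn2 (ENSMUSG00000026822, chr2:32384633-32388252, minus strand of GRCm38) had 709, 708 and 741 FPKM in the LPS libraries and 1007, 1004 and 985 FPKM in the LPSKD libraries. All 3 LPSKD libraries lay above all 3 LPS libraries, and the replicates of a group lay close together. The mean rose from 719 ± 19.0 to 999 ± 11.7 FPKM (SD, n = 3 per group), which is 0.47 on the log2 scale (standard error 0.03, 95% confidence interval 0.40 to 0.55, adjusted p = 0.000155 from limma). By p-value Lcn2 ranked 21 among the 11723 genes tested. In the order of abundance within a library it stood at rank 123 to 130 in LPS and at rank 79 to 82 in LPSKD. Lcn2 stayed past the threshold under all 16 other settings, including the omission of each library in turn, where its log2 fold change lay between 0.46 and 0.50.

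Osteopontin is a secreted phosphoprotein that binds integrins and Cd44 and attracts macrophages to the injured kidney. Spp1 (ENSMUSG00000029304, chr5:104435118-104441050, plus strand) had 3552, 3661 and 3566 FPKM in the LPS libraries and 2808, 2868 and 2825 FPKM in the LPSKD libraries. Every LPSKD library was below every LPS library. The mean fell from 3593 ± 59.4 to 2834 ± 30.7 FPKM (SD, n = 3 per group), which is −0.34 on the log2 scale (standard error 0.03, 95% confidence interval −0.41 to −0.27, adjusted p = 0.000988 from limma). Spp1 was the gene at rank 5 by FPKM in each LPS library and at rank 6 to 8 in the LPSKD libraries. It alone took 0.315% to 0.324% of all fragments in LPS and 0.249% to 0.254% in LPSKD. The difference held under all 16 other settings and was smallest after quantile normalisation, at −0.26.

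The 2 most abundant markers thus differed in opposite directions, and their ratio within a library, which does not depend on the library's scaling, was computed after their values were seen. The ratio of Lcn2 to Spp1 was 0.199, 0.193 and 0.208 in the LPS libraries and 0.359, 0.350 and 0.349 in the LPSKD libraries. The mean ratio was 1.76-fold higher in LPSKD (exact permutation test, two-sided, p = 0.1, the smallest that 3 libraries against 3 allow). Lcn2 and Spp1 each separated the groups, in opposite directions, so the ratio had to separate them too. Its separation and p-value therefore add nothing to the 2 results.

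Clusterin is an extracellular chaperone that binds misfolded proteins. Clu (ENSMUSG00000022037, chr14:65968483-65981547, plus strand) had 27.8, 31.2 and 26.6 FPKM in the LPS libraries and 36.3, 31.4 and 33.5 FPKM in the LPSKD libraries. The groups did not overlap, but the highest LPS library and the lowest LPSKD library almost met. The means were 28.5 ± 2.40 and 33.7 ± 2.46 FPKM (SD, n = 3 per group), which is 0.24 on the log2 scale (95% confidence interval 0.06 to 0.42), and Clu did not pass over all genes tested (adjusted p = 0.155 from limma).

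Timp1 and Timp2 encode secreted inhibitors of matrix metalloproteinases, and Timp2 in urine is used clinically as a sign of tubular stress. Timp1 (ENSMUSG00000001131, chrX:20870166-20874735, plus strand) had 59.0, 62.0 and 59.3 FPKM in the LPS libraries and 50.0, 52.5 and 51.4 FPKM in the LPSKD libraries. All 3 LPSKD libraries were below the LPS libraries. The mean fell from 60.1 ± 1.63 to 51.3 ± 1.26 FPKM (SD, n = 3 per group), which is −0.23 on the log2 scale (standard error 0.04, 95% confidence interval −0.33 to −0.13, adjusted p = 0.0288 from limma). This call was lost when any single library other than LPS replicate 1 was left out. The adjusted p was then 0.0717 without LPS replicate 2, 0.0979 without LPS replicate 3, and 0.127, 0.0701 and 0.111 without LPSKD replicates 1, 2 and 3 (limma). The call of Timp1 was also lost without trend (adjusted p = 0.0901) and with voom on recovered fragments (adjusted p = 0.0590).

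Timp2 (ENSMUSG00000017466, chr11:118301069-118355740, minus strand) had 264, 264 and 269 FPKM in the LPS libraries and 266, 268 and 264 FPKM in the LPSKD libraries. The groups overlapped almost fully, with means of 266 ± 2.52 and 266 ± 2.25 FPKM (SD, n = 3 per group). Its log2 fold change was 0.00 with a 95% confidence interval from −0.07 to 0.07 (adjusted p = 0.980 from limma), which bounds a difference at −4.45% to 4.98%. Timp1 relative to Timp2 was therefore 0.223, 0.235 and 0.221 in the LPS libraries and 0.188, 0.196 and 0.195 in the LPSKD libraries. This ratio was 0.852-fold in LPSKD with the groups apart (exact permutation test, two-sided, p = 0.1). With Timp2 level it repeats the difference of Timp1, and the pair was chosen after its values were seen.

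Kim1 is a receptor for phosphatidylserine that lets injured proximal tubule cells take up dying neighbours, and it is the marker the study followed most in mTECs. Havcr1 (ENSMUSG00000040405, chr11:46735080-46779578, plus strand) had 7.59, 7.02 and 4.96 FPKM in the LPS libraries and 6.95, 7.07 and 7.13 FPKM in the LPSKD libraries. The LPSKD libraries lay within the range of the LPS libraries, and LPS replicate 3 stood below the other 5. The means were 6.52 ± 1.38 and 7.05 ± 0.0907 FPKM (SD, n = 3 per group), and the log2 fold change of 0.13 did not pass (standard error 0.15, 95% confidence interval −0.22 to 0.49, adjusted p = 0.718 from limma). In percent this interval runs from −14.0% to 40.0%, so that a larger fall of Havcr1 lay outside it with all 6 libraries kept. The study itself reported, by real-time PCR, Western blot and immunofluorescence, that Stat3 knockdown curbed the LPS-induced rise of Kim1 in mTECs. Of these methods only real-time PCR measures RNA, and a rise over untreated cells was not measured here. The Stat3 transcript also did not differ detectably between the groups of these libraries. The interval of Havcr1 is therefore not a like comparison with the study's result. Havcr1 rested on 173, 160 and 111 fragments in LPS and 159, 156 and 166 in LPSKD. The Poisson interval of LPS replicate 3 was 4.08 to 5.97 FPKM, which covers counting error only, whereas the 3 LPSKD values differed by less than counting error. Without LPS replicate 3 the log2 fold change was −0.05 (adjusted p = 0.889 from limma). Of the 911 stretches of 31 bases in its coding sequence, 73 also occur in Timd2 or Gm4926, relatives with which fragments could be shared. Shared stretches were also found for Vcam1 (46 of 2356, in 1073 other genes) and Sox9 (25 of 1491, in Sox10). None were found for the rest of the markers.

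Vcam1 and Icam1 encode adhesion molecules that bind leukocyte integrins. Vcam1 (ENSMUSG00000027962, chr3:116109949-116129688, minus strand) had 9.02, 9.82 and 9.47 FPKM in the LPS libraries and 8.07, 8.85 and 7.96 FPKM in the LPSKD libraries. The groups were apart by a narrow gap, with means of 9.44 ± 0.402 and 8.30 ± 0.486 FPKM (SD, n = 3 per group). The log2 fold change of −0.18 did not pass (95% confidence interval −0.38 to 0.01, adjusted p = 0.306 from limma). Icam1 (ENSMUSG00000037405, chr9:21015985-21028817, plus strand), the gene with the STAT motif in its promoter window, had 0.598, 0.623 and 1.09 FPKM in the LPS libraries and 0.919, 1.03 and 0.878 FPKM in the LPSKD libraries. The highest of all 6 was an LPS library, and the groups overlapped. With 24 to 43 fragments per library, the interval of its fold change ran from 0.749 to 2.03 (log2 fold change 0.30, adjusted p = 0.684 from limma). Its LPS replicates varied by 36.1% (coefficient of variation), against 18.1% from counting error.

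Keratin 20 is an intermediate filament protein that injured tubule cells express. Krt20 (ENSMUSG00000035775, chr11:99428403-99438150, minus strand) had 6.53, 6.84 and 6.49 FPKM in the LPS libraries and 4.86, 4.27 and 4.20 FPKM in the LPSKD libraries. The LPSKD libraries were all below the LPS libraries, with 133 to 157 fragments against 205 to 220. The mean fell from 6.62 ± 0.191 to 4.44 ± 0.364 FPKM (SD, n = 3 per group), which is −0.57 on the log2 scale (standard error 0.11, 95% confidence interval −0.81 to −0.32, adjusted p = 0.0285 from limma). This was the largest absolute log2 fold change of the 10 markers. The call was lost when any single library other than LPSKD replicate 1 was left out. The adjusted p was then 0.0598, 0.0769 and 0.0979 without LPS replicates 1, 2 and 3, and 0.0944 and 0.112 without LPSKD replicates 2 and 3 (limma). Without a filter on low genes the adjusted p of Krt20 was 0.0690.

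Sox9 is a transcription factor of the developing nephron that tubule cells express again during repair. Sox9 (ENSMUSG00000000567, chr11:112782224-112787760, plus strand) had 50.6, 44.6 and 49.1 FPKM in the LPS libraries and 43.9, 38.2 and 43.7 FPKM in the LPSKD libraries. The groups met closely without overlap, with means of 48.1 ± 3.13 and 41.9 ± 3.23 FPKM (SD, n = 3 per group). The log2 fold change was −0.20 (95% confidence interval −0.36 to −0.04) and did not pass over all genes tested (adjusted p = 0.201 from limma). The replicates of Sox9 varied by 6.51% in LPS and 7.70% in LPSKD (coefficient of variation), more than the 2.35% and 2.51% that counting error gives.

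**Figure D2:**
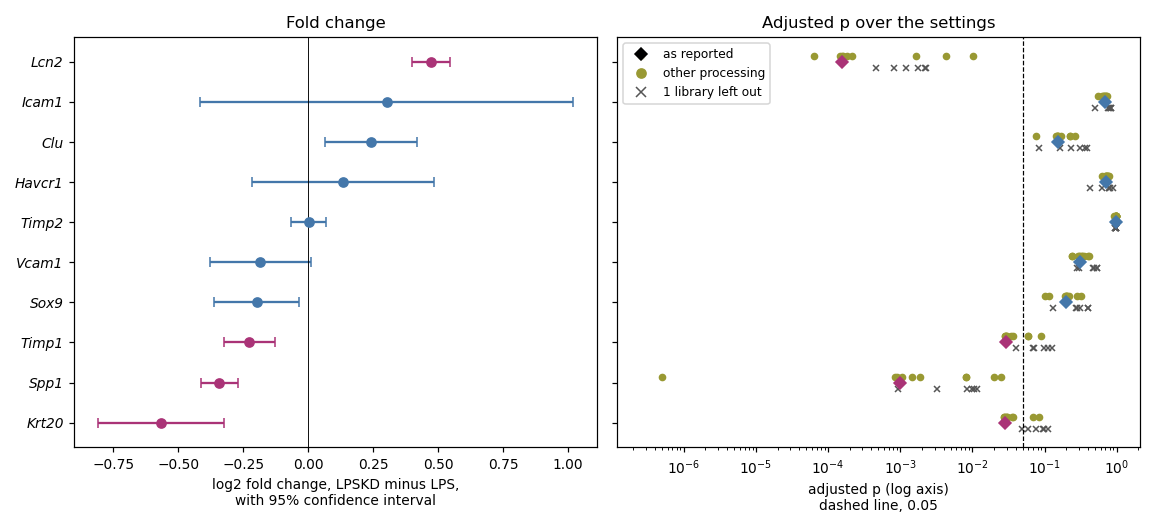
Left, log2 fold change of each marker (LPSKD minus LPS) with its 95% confidence interval from limma, purple where the adjusted p is under 0.05. Right, the adjusted p (log axis, dashed line at 0.05) as reported (diamonds), under other processing (olive circles) and with 1 library left out (crosses): Lcn2 and Spp1 stay left of the line throughout, and Krt20 and Timp1 lie on both sides of it.

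The plot of fold changes separates Lcn2 and Spp1, past the threshold under all 16 other settings, from Krt20 (9 of 16) and Timp1 (8 of 16). The other 6 markers were not past the threshold under any setting in which they were tested.

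**Figure D3:**
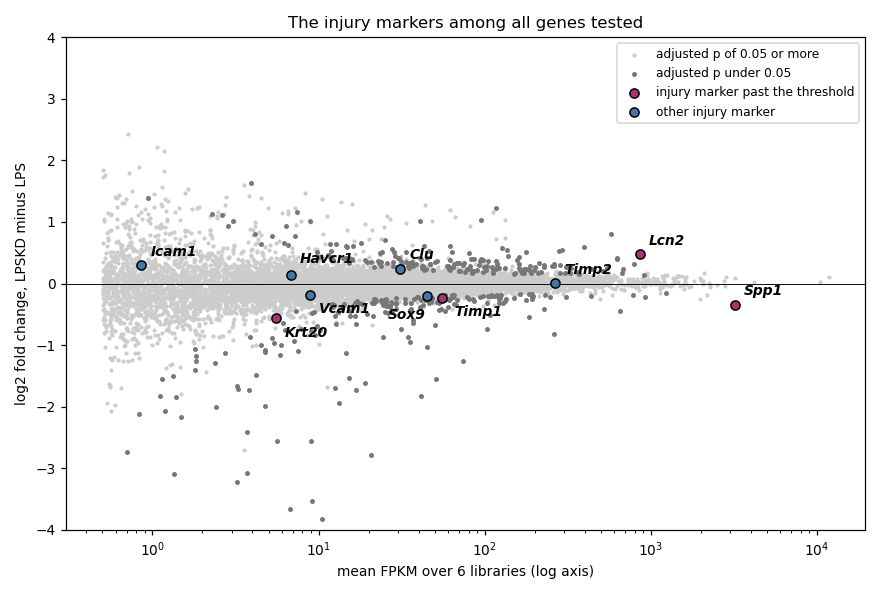
Log2 fold change (LPSKD minus LPS) against mean FPKM over the 6 libraries (log axis) for the 11723 genes tested, with genes past the threshold in dark grey and the 10 markers labelled. Spp1 and Lcn2 lie at the right, at 3213 and 859 FPKM, on opposite sides of the line of no difference.

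The position of the markers among all genes is shown in the plot of fold change against level. Genes whose values ran most closely with a marker were sought by the Pearson correlation of log2(FPKM + 0.1) over the 6 libraries, as a description. For Lcn2 these were Eri3 (r = 0.998), Igf2bp1 (0.998) and Hmgcs1 (0.997). Eri3 had 22.6 ± 0.192 and 24.8 ± 0.137 FPKM (SD, n = 3 per group) and did not pass (adjusted p = 0.208 from limma). Igf2bp1, an RNA-binding protein, went from 19.6 ± 0.650 to 27.5 ± 0.410 FPKM and Hmgcs1, an enzyme of cholesterol synthesis, from 203 ± 4.01 to 250 ± 2.86 FPKM (SD, n = 3 per group). For Havcr1 they were BC147527 (0.992), Gm17606 (0.988) and 1110012L19Rik (0.981), all lowest in LPS replicate 3, as Havcr1 was.

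Receptors and binding partners of the marker proteins formed a list of 22 genes, of which 14 passed the filter and 1 passed the test, against 3.23% of all genes tested. This was Cd44, a receptor for osteopontin and hyaluronan, which had 96.7, 89.8 and 90.5 FPKM in the LPS libraries and 81.9, 73.3 and 77.5 FPKM in the LPSKD libraries. The groups were apart, and Cd44 fell by 0.25 on the log2 scale (adjusted p = 0.0403 from limma), a call that was lost with any of the 6 libraries left out (adjusted p from 0.0533 to 0.134). The integrin subunits Itgav and Itgb1, which also bind osteopontin, had log2 fold changes of 0.11 and −0.08 and did not pass. Another, Itgb5, had 62.6 ± 0.633 and 71.3 ± 2.41 FPKM (SD, n = 3 per group) with the groups apart, a direction opposite to that of Cd44. It missed the threshold (log2 fold change 0.19, adjusted p = 0.0514 from limma), and it passed in 3 of the 10 settings that kept all libraries. The partner of Timp1 at the cell surface, Cd63, had 711 ± 34.9 and 743 ± 9.35 FPKM (SD, n = 3 per group) and did not pass either. Lrp2 and Slc22a17, receptors that take up lipocalin-2, were close to 0, with means of 0.00574 and 0.0140 FPKM in the LPS libraries. Except for Cd44, the genes of this list were named after their values were seen. The median log2 fold change of the 14 genes was 0.05.

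Of 28 metalloproteinases and inhibitors other than Timp1 and Timp2, 16 passed the filter, 0 passed the test in limma and 2 had an unadjusted p under 0.05. A voom fit on recovered fragments called 1 of them, Adamts5 (adjusted p = 0.0445). The most abundant were the secreted protease Adamts1, at 306 ± 12.5 and 307 ± 2.75 FPKM, and the membrane-bound sheddases Adam9 and Adam10, at 65.8 ± 3.61 and 65.0 ± 1.10 and at 55.5 ± 2.28 and 54.3 ± 1.86 FPKM (SD, n = 3 per group). Their groups overlapped. The gene with the largest difference, chosen after its values were seen, was Mmp7, a metalloproteinase of injured tubules, with 3.06, 2.45 and 1.99 FPKM in LPS and 0.999, 1.40 and 1.47 FPKM in LPSKD. The groups of Mmp7 were apart, and its log2 fold change of −0.90 did not pass (adjusted p = 0.0926 from limma).

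A further list of 49 genes of tubular injury and repair, outside the 10 markers, had 44 genes past the filter, of which 7 were higher and 4 lower in LPSKD with an adjusted p under 0.05 (limma), against 1.57% and 1.66% of all genes tested. The median log2 fold change of the 44 was 0.05. The higher genes included Plat and Plaur, which act in plasminogen activation. The protease tissue plasminogen activator (Plat) rose from 137 ± 3.43 to 184 ± 3.57 FPKM and the urokinase receptor Plaur from 155 ± 4.90 to 178 ± 4.16 FPKM (SD, n = 3 per group). On the log2 scale these rises were 0.43 and 0.20 (limma, adjusted p = 0.000531 and 0.0313).

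The matricellular gene Ccn1 and its relative Ccn2 differed in opposite directions. Ccn1 rose from 237 ± 7.54 to 345 ± 6.90 FPKM (log2 fold change 0.54, adjusted p = 0.000127 from limma), and Ccn2 fell from 330 ± 17.7 to 285 ± 3.51 FPKM (log2 fold change −0.21, adjusted p = 0.0359 from limma; SD, n = 3 each). The neutrophil attractant Cxcl1 rose from 533 ± 28.8 to 712 ± 14.4 FPKM (SD, n = 3 per group), which is 0.42 on the log2 scale (adjusted p = 0.00162 from limma). Mdm2, the ubiquitin ligase that limits p53, fell from 261 ± 4.26 to 197 ± 8.38 FPKM, and Lgals3, which encodes galectin-3, from 995 ± 14.7 to 851 ± 35.3 FPKM (SD, n = 3 per group). On the log2 scale these differences were −0.41 and −0.23 (limma, adjusted p = 0.00128 and 0.0166).

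Also past the threshold in this list, and named after their values were seen, were Cp and Plau at 0.19 and 0.14 and Krt18 at −0.15 on the log2 scale. Calls of Ccn1, Plat, Cxcl1 and Mdm2 held with each library left out. Those of Ccn2, Lgals3, Plaur, Cp, Plau and Krt18 were lost with at least 1, and the highest adjusted p was 0.128 for Ccn2, 0.0870 for Lgals3, 0.129 for Plaur, 0.160 for Cp, 0.173 for Plau and 0.158 for Krt18 (limma). Ccn2 was lost without LPS replicate 3 or any LPSKD replicate, and Lgals3 without LPS replicate 3 or LPSKD replicate 1 or 3. Plaur and Krt18 were kept only without LPS replicate 1, Cp only without LPS replicate 2, and Plau in none of these fits.

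**Figure D4:**
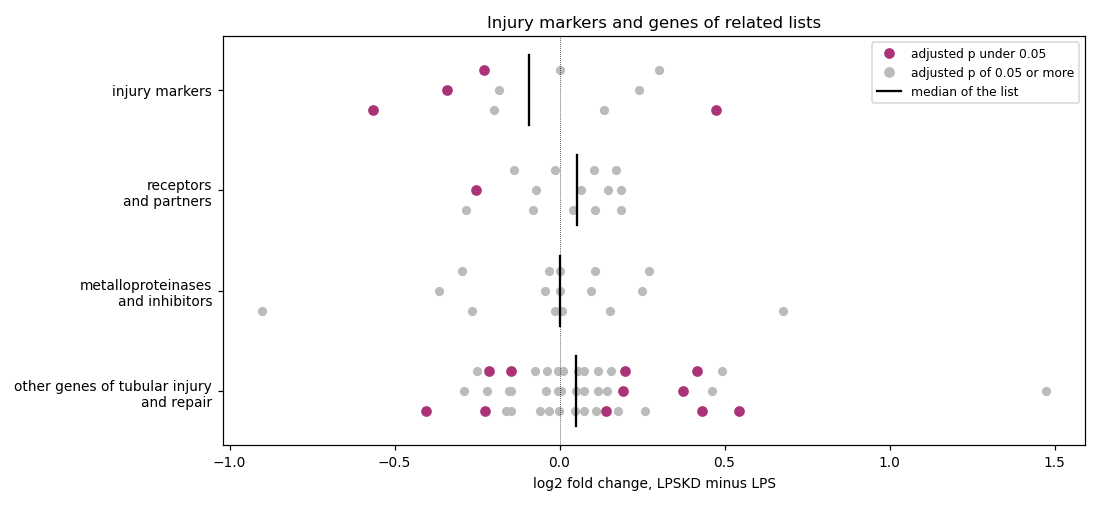
Log2 fold change (LPSKD minus LPS) of the tested genes of 4 lists, 1 point per gene, purple where the adjusted p is under 0.05, with the median of each list as a black bar (points are spread vertically for legibility). The markers run from −0.57 to 0.47, and the medians of the 4 lists lie between −0.09 and 0.05.

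The plot of the 4 lists shows genes on both sides of 0 in each. Several markers are also expressed by other cells, so markers of these were measured beside them. The list of 10 leukocyte markers summed to 60.6 to 66.0 FPKM in the LPS libraries and to 62.9 to 75.9 FPKM in the LPSKD libraries. Of its 6 tested genes 1 passed, against 3.23% of all genes tested. This was Csf1r, which rose from 24.4 ± 2.74 to 33.3 ± 0.583 FPKM (SD, n = 3 each; adjusted p = 0.0208 from limma). The call was lost without LPS replicate 3 or any LPSKD replicate (adjusted p up to 0.0904). The other 5 tested genes had negative log2 fold changes. Among them were the macrophage markers Cd68, at 13.7 ± 1.20 and 11.1 ± 1.34 FPKM with the groups apart, and Adgre1, at 1.03 ± 0.252 and 0.770 ± 0.208 FPKM (SD, n = 3 per group). Neither passed (adjusted p = 0.197 and 0.593 from limma), and the median log2 fold change of the 6 was −0.24. The pan-leukocyte marker Ptprc had 0.880 ± 0.202 and 0.818 ± 0.387 FPKM (SD, n = 3 per group), while Itgam was at or near 0. The 7 endothelial markers summed to 2.98 to 5.48 and 3.36 to 5.64 FPKM, and the 10 fibroblast and pericyte markers to 37.4 to 47.6 and 26.0 to 48.8 FPKM, with overlapping groups and 0 genes past the threshold or at an unadjusted p under 0.05 in limma, and 0 past it with voom. The 20 tubule markers summed to 3239 to 3317 FPKM in LPS and 3199 to 3232 FPKM in LPSKD. Of the 12 tubule markers tested, 4 were higher and 1 lower in LPSKD past the threshold, against 1.57% and 1.66% of all genes tested. Pax2, Pax8, Cdh16 and Aqp1 were higher, by 0.60, 0.39, 0.27 and 0.93 on the log2 scale, and Krt18 was lower. The call of Aqp1 was lost without LPS replicate 3 or LPSKD replicate 2 or 3 (adjusted p up to 0.0868), and that of Cdh16 without LPS replicate 3 or LPSKD replicate 3 (up to 0.0580). The part of these markers in the differences of Lcn2, Spp1, Krt20 and Timp1 was not tested.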

How the data were processed

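RNA-seq of 6 mTEC libraries was analysed, 3 labelled LPS and 3 labelled LPSKD, grouped by their sample titles. The authors deposited FPKM values, 1 per gene and library, from paired-end poly(A) libraries, without pooling replicates. The submitters' processing notes name HISAT2 2.0, StringTie 1.3.0 and Bowtie 0.12.2, and the builds mm8 and GRCh38.p13, with no role. Gene models and filters are not given in the sources used here. Of 22442 identifiers, 22399 matched a GENCODE M21 symbol (GRCm38). Multiplied by a coding length and a library total, 16454 of 16837 genes above 0 (97.7%) gave whole fragment numbers, to within 1e-06, at the merged coding length or slightly more, and 383 at a searched length. With totals raised slightly, 0.0535% were whole. For most genes FPKM was therefore divided by the coding length. Whether fragments outside coding sequence were counted was not tested. Counting intervals cover counting error only.

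Differences were tested with limma 3.58.1 in R 4.3.3 (lmFit, eBayes with trend) after adding 0.1 to each FPKM and taking log2. Genes entered at a mean of 0.5 FPKM or more, with Benjamini-Hochberg adjustment at 0.05. On this scale the change of low genes is understated. The limma step was also run on simulated data with fold changes larger than those of the markers, and no result here rests on that run. Permutation tests of single values were exact and two-sided, over 20 label assignments, and cannot give a p under 0.1. Alternatives were pseudocounts of 1 and 0.01, filters at 1 and 0.1 and none, quantile normalisation, median centring, a replicate block, no trend in eBayes, voom on recovered fragments and the omission of each library. Libraries of 1 group were further apart than counting noise gives (chi-square per gene 4.09 to 10.9 over 11546 genes), so each was kept as its own.

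The markers and lists were chosen with earlier results of these data known. The text names the 10 markers, Stat3, up to 8 genes of each list with the largest change among those past the threshold with groups apart (else the 3 most abundant), the genes that check the cell type, and the 3 genes most correlated with Lcn2 and Havcr1. Other names were chosen after their values were seen. Some genes that these rules and lists cover are counted but not reported here by name. Sequences were read from the study's primer list and RefSeq promoter windows. Scripts used Python 3.11.15, numpy 2.4.6, pandas 2.3.3, scipy 1.17.1 and matplotlib 3.10.9.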

Additional observations from a re-analysis of the deposited data

How the results depend on the processing

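The number of markers past the threshold, 4, was 2 with the replicate number as a block, which ended the calls of Krt20 (adjusted p = 0.0826) and Timp1 (adjusted p = 0.0589), and 2 to 3 with 1 library left out. Whether the replicate numbers pair the samples is not given in the labels. Deviations of same-numbered libraries had correlations of −0.0160, −0.00388 and −0.0426, and no library correlated best with its own number. With only 3 libraries per group, these correlations cannot show whether the libraries were paired. The block took all calls from 379 to 213, while voom gave 598, no filter 266, eBayes without trend 140, and the omission of 1 library 158 to 356, fewest without LPS replicate 3. Havcr1 lay between −0.0491 and 0.253 with 1 library left out, changing sign without LPS replicate 3. Timp2 lay at −0.00696 after quantile normalisation and between −0.00411 and 0.0101 with 1 library left out. Stat3 lay between −0.0641 and 0.0444 with 1 library left out. The cause of these sign changes was not tested. Of the receptors and partners, 1 as reported, 2 passed at a mean FPKM of at least 1, 0 without a filter, 3 with median centring, 0 without trend, 3 with voom and 0 with any library left out. Metalloproteinases and inhibitors had 1 with voom. Of the other injury and repair genes, 11 as reported, 6 passed without a filter, 5 without trend, 6 with the replicate block and 5 to 12 with 1 library left out. Lcn2, Spp1, Krt20 and Timp1 kept their direction under every alternative. Icam1 was not tested at a mean FPKM of at least 1. Depth limits Icam1, Havcr1 and Krt20 most, at 24 to 43, 111 to 173 and 133 to 220 fragments per library.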
